A study of Mus musculus with 8 samples.

Results

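Immediate early transcription factors are the regulators that a cell transcribes at once when a growth factor, a cytokine, a bacterial product or a mechanical stress reaches it, from factors already present and without new protein synthesis. They comprise the FOS and JUN proteins and ATF3, which pair through leucine zippers and bind DNA as AP-1, the zinc finger EGR proteins, the orphan nuclear receptor NR4A1 and the regulator IER2. Their mRNAs are short-lived, so their level follows the recent history of a tissue, and in lung they respond to inflammatory signals such as lipopolysaccharide (LPS) as well as to the handling of the tissue. The 10 members, Fos, Fosb, Jun, Junb, Egr1, Egr2, Egr3, Atf3, Ier2 and Nr4a1, were taken by name from the 24584 genes measured, with earlier results of these data known. All 10 were found, and all 10 passed the filter on low counts that left 15706 genes for testing.

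RNA from lung tissue of 8 separate male ICR mice, an outbred wild-type stock (the labels write "widetype"), aged 6 to 8 weeks, was sequenced. The 4 mice of the LPS group received LPS of Escherichia coli by intraperitoneal injection at 5 mg/kg. The 4 mice of the LPS + Tan group received in addition tangeretin, a polymethoxylated flavone of citrus peel, intraperitoneally at 50 mg/kg, given 30 min before the LPS. Lungs were taken 12 h after LPS. The comparison therefore asks how these transcripts differed between LPS-treated mice with and without tangeretin at a single late time, and it holds neither an untreated group nor a group given tangeretin alone. Whether the LPS group received the vehicle of tangeretin is not stated in the labels or the methods used here. The methods name TRIzol extraction and a VAHTS library kit, whereas the labels name a column kit and another library kit.

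Reads counted on genes numbered 39733172, 39197433, 39931970 and 38895654 in LPS replicates 1 to 4 and 39465593, 39166685, 39039693 and 39629332 in LPS + Tan replicates 1 to 4, so depth was nearly the same in every sample. Levels of a gene across samples are given as CPM, counts per 1000000 reads of the sample's total times its TMM factor from edgeR. Levels of different genes are compared as FPKM, which also divides by gene length. The tissue label was checked against markers. Alveolar type 2 markers summed to between 8622 and 13782 CPM in a sample, with Sftpc the most abundant, and club and ciliated cell markers to between 12507 and 18924 CPM, led by Scgb1a1. Skeletal muscle markers stayed between 4.58 and 9.60 CPM and thymus and oesophagus markers between 0.734 and 3.25 CPM, while heart muscle markers reached 163 to 321 CPM. In bulk tissue, fewer cells of a type and less RNA per cell cannot be told apart, which holds for every value given here.

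The 10 members spanned a wide range of levels. On the FPKM scale Jun had the highest mean level over the 8 samples, 109, followed by Junb at 95 and Ier2 at 53.6. Fos at 24.5, Atf3 at 22.2, Egr1 at 21.9 and Nr4a1 at 20.0 formed a middle group whose ranges overlapped throughout. Egr2 at 0.809, Fosb at 0.610 and Egr3 at 0.416 FPKM were the lowest, and Egr3 rested on 43 to 88 reads per sample. Along this order the neighbours Junb and Ier2, Ier2 and Fos, and Nr4a1 and Egr2 had ranges that did not overlap, whereas Jun and Junb overlapped although Jun was higher in 8 of 8 samples. Jun and Junb together made up 53.7% to 64.3% of the summed FPKM of the 10 genes. The gene lengths that the FPKM values imply are 9083 bases for Egr2, 5123 for Nr4a1 and 4134 for Egr3. Their first GENCODE transcripts have 2965, 2477 and 1509 bases, so the places of Nr4a1 and Egr3 in the order depend on the annotation. Recomputed with the length of the first transcript, Nr4a1 averaged 41.4, above Fos at 24.5, and Egr1 averaged 15.0 on the same scale. Egr3 averaged 1.14 there, above Fosb at 0.609, while Egr2 at 2.48 kept its place. The length implied for Egr2 exceeds its whole GENCODE gene span of 6714 bases.

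Fos and Egr1 were the members that fell with tangeretin at an unadjusted p below 0.05 in edgeR, and no member rose at that threshold. This is 2 of 10 members, against 2.25% of all 15706 genes in the lower and 2.87% in the higher direction. The fold changes of 9 of 10 members were below 0, with a median log2 fold change of -0.25 (-0.19 with limma on log2(FPKM + 0.1) and -0.091 with limma on log2(FPKM + 1), over all genes as well), while the median over all genes tested was 0.0070 and 48.2% of them were lower. Of these 9, Jun moved to 0.0042 when the counts were scaled by library totals only. Adding 1 to FPKM makes log2 fold changes smaller for the members at about 1 FPKM or below, Egr2, Fosb and Egr3. At an adjusted p below 0.05 edgeR with the Benjamini-Hochberg method called 0 members and 0 of all genes (0.0%), voom called 0 genes, the edgeR likelihood ratio test 23 and DESeq2 35, with none of the members among them. The study's own thresholds, an unadjusted p of 0.05 with an absolute log2 fold change of 1, took in 102 genes (0.649%), again without a member. The groups were separated, with every LPS + Tan sample below every LPS sample, for 1.15% of all genes and for none of the 10 members.

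**Figure D1:**
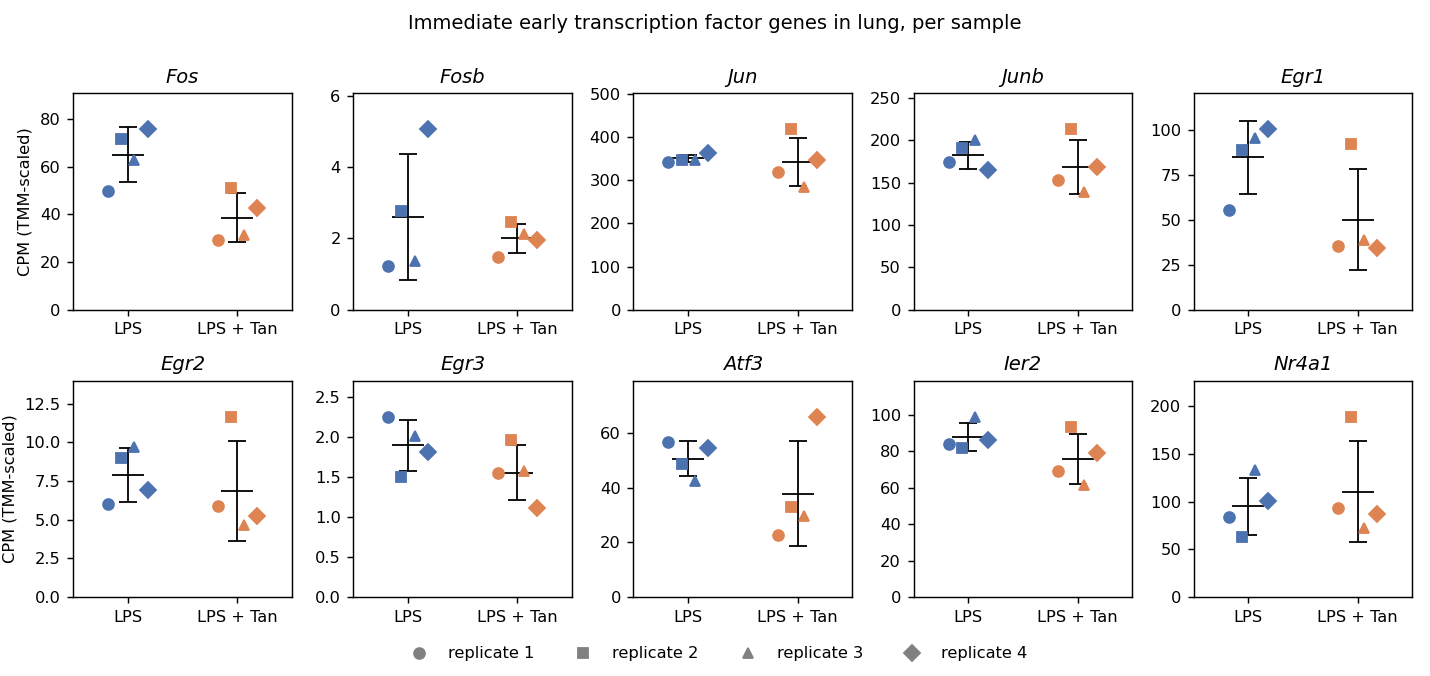
CPM of the 10 immediate early transcription factor genes in the lungs of 4 LPS and 4 LPS + Tan mice (linear axes from 0, symbols give the replicate number, horizontal bars the mean and error bars the SD, n = 4). In the LPS + Tan group, replicate 2 is the highest sample for 9 of the 10 genes, and the groups overlap in every panel.

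Fos, the AP-1 subunit that pairs with JUN proteins, stood at 49.9, 71.8, 62.8 and 75.6 CPM in LPS replicates 1 to 4 and at 29.4, 51.2, 31.2 and 42.8 CPM in LPS + Tan replicates 1 to 4. LPS replicate 1 was the low sample of its group and LPS + Tan replicate 2 the high sample of its own, and it is only this pair that overlapped, since the other 3 LPS + Tan samples lay below every LPS sample. The group mean was 65.0 ± 11.4 CPM (SD, n = 4) with LPS and 38.6 ± 10.2 CPM (SD, n = 4) with LPS + Tan. The log2 fold change was -0.75 with a standard error of 0.19 (edgeR, unadjusted p = 0.00270, Benjamini-Hochberg adjusted p = 0.850), a decrease to 0.594 of the LPS level with a 95% interval on the log2 scale of -1.17 to -0.33. The exact two-sided permutation test of log2 CPM gave p = 0.0571, where the smallest p that the 70 arrangements of 4 and 4 samples allow is 0.0286. Fos was below an unadjusted p of 0.05 in every one of 20 other settings of the fit, with each sample left out included.

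Fosb, a FOS relative that is read only faintly in lung, ranged from 1.23 to 5.05 CPM with LPS and from 1.48 to 2.47 CPM with LPS + Tan. LPS replicate 4 was its highest sample, at 195 reads against 48 to 109 in the other LPS samples. Its log2 fold change was -0.38 with a standard error of 0.42 (edgeR, unadjusted p = 0.394), and 0.17 without LPS replicate 4, so its direction rested on that sample. With all samples it was -0.16 with voom and -0.17 with the replicate block. Limma on log2(FPKM + 0.1) and on log2(FPKM + 1) gave -0.13 and -0.093.

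Jun, the main partner of FOS, held 343, 348, 348 and 364 CPM in LPS replicates 1 to 4 and 320.1, 418, 285 and 346 CPM in LPS + Tan replicates 1 to 4. The LPS mice were nearly identical, while the LPS + Tan mice held both the highest and the lowest sample of all 8. The group means of Jun were 350.5 ± 8.98 and 342 ± 56.1 CPM (SD, n = 4), and the log2 fold change of -0.034 (standard error 0.12, edgeR, unadjusted p = 0.774) had a 95% interval of -0.29 to 0.22. Junb, a JUN protein that often restrains JUN, ranged from 164 to 199.6 CPM with LPS and from 139 to 213 CPM with LPS + Tan, with a log2 fold change of -0.12 (standard error 0.13, edgeR, unadjusted p = 0.396). Here too LPS + Tan replicates 2 and 3 were the extremes of the 8 samples. Without LPS + Tan replicate 2, Junb was at -0.25 with an unadjusted edgeR p of 0.0382, and without LPS + Tan replicate 3 at -0.039.

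Atf3, a stress-induced ATF protein that acts largely as a repressor of inflammatory genes, was measured at 56.8, 48.7, 42.6 and 54.6 CPM in LPS replicates 1 to 4 and at 22.7, 32.9, 29.5 and 66.0 CPM in LPS + Tan replicates 1 to 4. LPS + Tan replicates 1 to 3 lay below all LPS samples and replicate 4 above all of them, which is a different sample from the one that stood high for most members. The log2 fold change with all samples was -0.42 with a standard error of 0.28 (edgeR, unadjusted p = 0.161, Benjamini-Hochberg adjusted p = 0.931). With the replicate block it was -0.53 (edgeR, unadjusted p = 0.048), and without LPS + Tan replicate 1 it was -0.25. Without LPS + Tan replicate 4 it was -0.84 (edgeR, unadjusted p = 0.000301), and its adjusted p over the 20 other settings ran from 0.116 to 1.0.

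Egr1, the zinc finger factor of growth factor and shear stress responses, was at 55.2, 88.6, 95.3 and 100.2 CPM in LPS replicates 1 to 4 and at 35.2, 92.0, 39 and 34.4 CPM in LPS + Tan replicates 1 to 4. It was low and even in 3 LPS + Tan mice, all below every LPS mouse, and at the level of the LPS group in LPS + Tan replicate 2. The group means were 84.8 ± 20.3 and 50.2 ± 28.0 CPM (SD, n = 4). The log2 fold change was -0.76 with a standard error of 0.32 (edgeR, unadjusted p = 0.0407, Benjamini-Hochberg adjusted p = 0.924), with a 95% interval of -1.48 to -0.039 and an exact permutation p of 0.0857. This call depended on the samples. It was kept without LPS replicate 1 or LPS + Tan replicate 2 and lost in the fits without each of the other 6, where the unadjusted edgeR p went up to 0.108 and the log2 fold change to -0.61. Without LPS + Tan replicate 2 the LPS + Tan mean was 36.2 ± 2.46 CPM (SD, n = 3) and the log2 fold change -1.23 (edgeR, unadjusted p = 9.2e-05), and adjusted p over the 20 other settings ran from 0.143 to 1.0.

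Egr2, an EGR factor of myelin and lymphocyte programs, ranged from 6.01 to 9.67 CPM with LPS, and in the LPS + Tan group it was 11.6 CPM in replicate 2 and 4.66 to 5.88 CPM in the others. Its log2 fold change was -0.20 with a standard error of 0.29 (edgeR, unadjusted p = 0.499), and -0.58 without LPS + Tan replicate 2 (edgeR, unadjusted p = 0.0137). With another sample left out it ran from -0.31 to -0.058, the latter without LPS + Tan replicate 3. Egr3, an EGR factor of muscle spindles and T cell responses, ranged from 1.49 to 2.25 CPM with LPS and from 1.12 to 1.96 CPM with LPS + Tan. Its log2 fold change was -0.29 (standard error 0.24, edgeR, unadjusted p = 0.255), and -0.16 without LPS + Tan replicate 4. With limma on log2(FPKM + 1) and all samples, Egr3 was at -0.071 and Egr2 at -0.087.

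Nr4a1, a nuclear receptor without a known hormone that is induced in activated lymphocytes and macrophages, was at 83.4, 62.7, 133 and 101 CPM in LPS replicates 1 to 4 and at 93.8, 189, 72.4 and 87.4 CPM in LPS + Tan replicates 1 to 4. LPS + Tan replicate 2 exceeded every other sample, and the remaining 3 LPS + Tan samples lay inside the LPS range. Nr4a1 was the member with a fold change above 0, a log2 value of 0.22 with a standard error of 0.31 (edgeR, unadjusted p = 0.499), which became -0.17 without LPS + Tan replicate 2. The value was 0.059 without LPS replicate 2 and 0.42 without LPS replicate 3. Ier2, a nuclear protein without a known DNA-binding domain, ranged from 81.8 to 99.0 CPM with LPS and from 61.5 to 93.3 CPM with LPS + Tan. In 3 of 4 LPS + Tan samples it lay below every LPS sample, at a log2 fold change of -0.21 (standard error 0.13, edgeR, unadjusted p = 0.126), and without LPS + Tan replicate 2 the value was -0.33 (edgeR, unadjusted p = 0.0144), and without LPS + Tan replicate 3 it was -0.13.

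**Figure D2:**
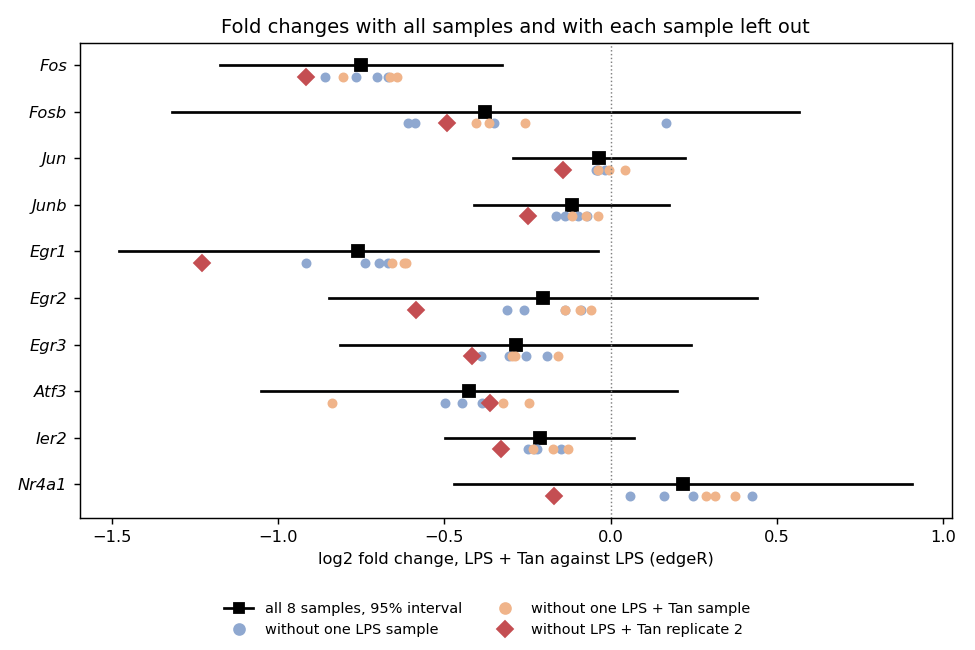
Log2 fold change of each member, LPS + Tan against LPS, from edgeR, with all 8 samples (black squares, bars are 95% intervals) and with each sample left out in turn (points, the red diamonds without LPS + Tan replicate 2). The interval lies below 0 for Fos and Egr1, while Fosb, Jun and Nr4a1 have points on both sides of 0, and Jun also reaches 0.0042 when scaled by library totals only.

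In the summed level of the members, the LPS + Tan mice differed from each other more than the LPS mice did. Summed over the 10 members, the level was 341, 371, 377 and 375 FPKM in LPS replicates 1 to 4 and 294, 419.9, 278 and 325 FPKM in LPS + Tan replicates 1 to 4. Replicate 2 of the LPS + Tan group had the highest sum of all samples, was the highest of its group for 9 of 10 members, all but Atf3, and lay below the LPS median for 2 of 10, Fos and Atf3. In each of the other 3 LPS + Tan mice 9 of 10 members lay below the LPS median, and replicate 3 was the lowest of all 8 samples for 4 members. Without LPS + Tan replicate 2, 5 of 10 members, Fos, Egr1, Egr2, Junb and Ier2, were lower at an unadjusted edgeR p below 0.05, against 5.06% of all genes in that fit, and the median log2 fold change of the members was -0.39. Without LPS replicate 2, 3 or 4 or LPS + Tan replicate 1 or 3 the count was 1, with Fos as the member lower. In these fits 1.91%, 1.71%, 2.0%, 1.33% and 1.88% of all genes were lower. The count was 2 without LPS replicate 1 (Fos and Egr1) and without LPS + Tan replicate 4 (Fos and Atf3), against 2.54% and 4.56% of all genes. Nothing in the labels sets LPS + Tan replicate 2 apart, and all values given with 8 samples include it.

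The spread between mice estimated by edgeR exceeded that of genes of like abundance for 6 of 10 members, against 28.0% of all genes. Egr1 had a coefficient of variation between mice of 31.8%, where the trend at its abundance was 14.4%, and only 202 genes of 15706 lay as far above their trend. Nr4a1 was at 30.7% against a trend of 14.6%, and Atf3 at 28.0% against 14.5%. Jun and Junb, at 13.2% and 14.6%, were no more variable than genes of their abundance.

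The members did not move as a single block. Over the 8 samples, the log2 CPM of Fos was most like that of Egr1 among the other members, with a Pearson r of 0.88, and Fos and Nr4a1 gave an r of 0.14. Junb was most like Egr2 (r = 0.92), Ier2 was most like Junb (r = 0.89) and Jun was most like Junb (r = 0.84). Nr4a1 was most like Jun (r = 0.71), Atf3 most like Fos (r = 0.64), Egr3 most like Egr1 (r = 0.56) and Fosb most like Fos (r = 0.49). Each r is a description over 8 samples that share their library, dissection and scaling factor.

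Ratios between members within a sample do not depend on the scaling. The FPKM ratio of Fos to Jun was 0.220, 0.312, 0.273 and 0.314 in LPS replicates 1 to 4 and 0.139, 0.185, 0.165 and 0.187 in LPS + Tan replicates 1 to 4. All LPS + Tan samples, replicate 2 included, were below all LPS samples, so that Fos was lower relative to Jun also in the mouse with the highest Jun. The ratio of Egr1 to Nr4a1 was 1.10, 2.35, 1.19 and 1.65 in the LPS group and 0.627, 0.812, 0.898 and 0.656 in the LPS + Tan group. Egr1 was thus the higher of the pair in every LPS mouse and the lower in every LPS + Tan mouse on this scale. With the lengths of the first transcripts it was the lower in all 8, at ratios of 0.365 to 0.780 with LPS and 0.208 to 0.298 with LPS + Tan. Which gene was higher thus depends on the annotation. The gap between the groups does not. Of the 45 pairs of members, 7 had ratios that did not overlap between the groups, against 2.98% of all pairs of the 15669 tested genes with a count in every sample. The others were Fos to Junb (0.250 to 0.401 with LPS, 0.168 to 0.222 with LPS + Tan), Fos to Ier2 (0.427 to 0.633 and 0.307 to 0.396), Jun to Ier2 (1.68 to 2.03 and 2.09 to 2.21), Egr1 to Egr2 (27.2 to 43.0 and 17.7 to 24.7) and Egr2 to Nr4a1 (0.0384 to 0.0806 and 0.0337 to 0.0364). The pairs share genes, 3 of the 7 holding Fos and 2 holding Nr4a1, and were picked out after their values were seen.

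Outside the members, the 10 genes whose log2 CPM was most like the members' mean profile, out of 13725 candidates, were Ccn1, Slc52a3, Gars, Nek7, Akap12, Csnk1d, Ptpn12, Rps6kc1, Pik3c2a and Fmnl2, with Pearson r from 0.989 to 0.963 over the 8 samples. Ccn1, a matricellular protein gene that is itself an immediate early gene, was at 116, 142, 145.5 and 152 CPM in LPS replicates 1 to 4 and at 85.5, 160.2, 76.6 and 104 CPM in LPS + Tan replicates 1 to 4. Akap12, a scaffold for protein kinase A, was at 1199.6, 1276, 1617 and 1266 CPM with LPS and at 655, 1762, 546 and 741 CPM with LPS + Tan. As genes chosen for this likeness, both share the members' profile by selection. Their log2 fold changes were -0.38 and -0.53 (edgeR, unadjusted p = 0.0956 and 0.135).

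Among other genes of the immediate early and primary response, 54 of 55 listed genes were tested. Of these, 7 fell and 2 rose with tangeretin at an unadjusted p below 0.05, against 2.25% and 2.87% of all genes. The median log2 fold change of the list was -0.15. The count that fell was 18 without LPS + Tan replicate 2 and 13 without LPS + Tan replicate 4, fits in which 5.06% and 4.56% of all genes fell, and 3 to 6 in the other left-out fits, with 1.33% to 2.54% of all genes. With all samples it was 5 to 12 in other settings. The median was -0.28 without LPS + Tan replicate 2, against -0.074 without LPS + Tan replicate 1 and -0.075 without LPS + Tan replicate 3. Zfp36, which encodes the mRNA decay factor tristetraprolin, was lower in every LPS + Tan mouse than in any LPS mouse, at 121, 136, 114 and 145 CPM against 164, 159, 169 and 147 CPM, with a log2 fold change of -0.31 (standard error 0.094, edgeR, unadjusted p = 0.00828). Plk2, a stress-responsive polo-like kinase, had a log2 fold change of -0.45 (standard error 0.11, edgeR, unadjusted p = 0.00277). Both passed that threshold in all of 20 other settings, as did Gadd45g, a growth arrest gene, at -0.61. Tnfaip3, which encodes the NF-κB inhibitor A20, was at -0.36, Sik1, a salt-inducible kinase, at -0.37, Gadd45a at -0.49 and Errfi1, a feedback inhibitor of the EGF receptor, at -0.50. Tnfaip3 lost the threshold without LPS replicate 2 or LPS + Tan replicate 1 or 3 (log2 fold changes of -0.48 to -0.29 with a sample left out). Sik1 lost it without LPS replicate 2, 3 or 4 or LPS + Tan replicate 1, 3 or 4 (-0.53 to -0.26). Sik1 also lost it with library totals only and with limma on log2(FPKM + 1) of all genes. Gadd45a lost it without LPS replicate 1, 2 or 3 or LPS + Tan replicate 1 or 3 (-0.61 to -0.34). Gadd45a also lost it with the replicate block and with limma on log2(FPKM + 1) of all genes. Errfi1 lost it without any of the LPS samples or LPS + Tan replicate 1 or 3 (-0.67 to -0.35). The genes that rose, Klf4 at 0.36 and Id3 at 0.35, are regulators of vascular and epithelial differentiation. Klf4 lost the threshold without LPS replicate 1, 2 or 3 or LPS + Tan replicate 1, 3 or 4 (0.26 to 0.54). Id3 lost it without LPS replicate 2, 3 or 4 or LPS + Tan replicate 4 (0.20 to 0.42).

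A further list held relatives and corepressors of the EGR and NR4A members and relatives of Ier2. Of its 8 tested genes, 2 rose and 0 fell at an unadjusted p below 0.05 in edgeR. The counts were the same in the 20 other settings. Over all genes 2.87% rose and 2.25% fell with all samples. The median log2 fold change of the list was -0.085. Nr4a2, the other paralog of Nr4a1, mentioned after its value was seen, was at -0.22 (edgeR, unadjusted p = 0.248). Nr4a3, a paralog of Nr4a1, was at 6.60, 5.14, 7.11 and 5.47 CPM in LPS replicates 1 to 4 and at 10.1, 7.30, 7.51 and 8.68 CPM in LPS + Tan replicates 1 to 4, so the groups did not overlap (log2 fold change 0.46, standard error 0.16, edgeR, unadjusted p = 0.0142). Ier5, a relative of Ier2 that takes part in the heat shock response, was at 86.1, 81.6, 82.2 and 74.3 CPM and at 108, 108, 97.7 and 94.0 CPM, also without overlap (log2 fold change 0.33, standard error 0.081, edgeR, unadjusted p = 0.00238). In both genes LPS + Tan replicate 2 lay above every LPS sample. For Nr4a3 it was the lowest of its group, at 7.30 CPM against 7.11 CPM in LPS replicate 3. The share of all genes whose groups were separated in this higher direction is not given here. Whether the change of Nr4a3 differed from that of Nr4a1, or that of Ier5 from that of Ier2, was not tested.

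Upstream of the members, the 28 tested genes of the MAPK cascade had 0 higher and 0 lower at an unadjusted p below 0.05 in edgeR and a median log2 fold change of -0.0017. In other tests and scalings, DESeq2 and voom among them, up to 1 gene was higher, and with a sample left out up to 3 were. Mapkapk2 had a log2 fold change of -0.0052, a value so near 0 that its sign changed with the scaling. The 11 genes of SRF, its partners, ETS relatives and CREB coactivators also had 0 in either direction (at most 1 with a sample left out), with a median of 0.057 and with Ets2 and Ets1 at 0.049 and 0.068. Without LPS + Tan replicate 2 both the median and Ets2 were at 0.0017. The values of these upstream lists are mRNA levels, and the activity of the encoded kinases and factors was not measured. Other AP-1, small MAF and ATF genes, 20 in number, had 0 in either direction (at most 1 either way in other settings, and 2 lower with a sample left out) and a median of -0.049, with Atf4 at -0.065 and Mafk at -0.14. Downstream, among 21 tested textbook targets of AP-1 or EGR1, 2 fell, Timp1 at -0.63 and the tissue factor gene F3 at -0.50, and 2 rose, the urokinase gene Plau at 0.60 and Pdgfb at 0.28, with a median of -0.021. With a sample left out both counts ran from 0 to 4, with 4 lower without LPS + Tan replicate 2 or 4 and 4 higher without LPS + Tan replicate 4. Of all genes, 2.25% were lower and 2.87% higher with all samples. In the fits without LPS + Tan replicate 2 and 4, 5.06% and 4.56% of all genes were lower. Without LPS + Tan replicate 4, 761 of 15932 genes were higher. Timp1 lost the threshold without LPS replicate 2 or 3 or LPS + Tan replicate 1, 3 or 4 (-0.82 to -0.34 with a sample left out), and with limma on FPKM. F3 lost it without LPS replicate 1 or 3 or LPS + Tan replicate 1 or 3 (-0.66 to -0.36). F3 also lost it with the replicate block and with limma on log2(FPKM + 1) of all genes. Plau lost it without LPS replicate 3 or LPS + Tan replicate 1 (0.38 to 0.73) and Pdgfb without LPS replicate 2 or 3 or LPS + Tan replicate 1 or 2 (0.22 to 0.36). The list thus held no common direction.

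**Figure D3:**
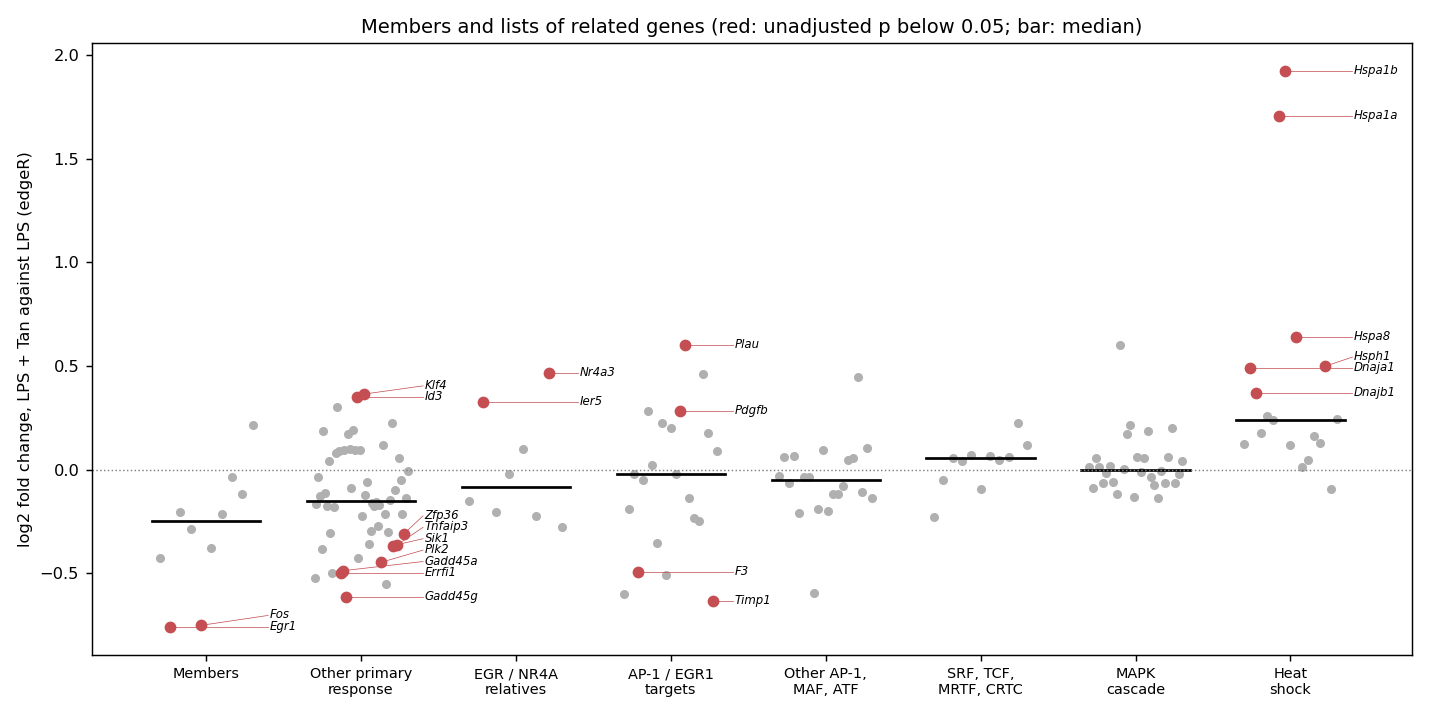
Log2 fold change, LPS + Tan against LPS, of the 10 members and of the tested genes of 7 lists of related genes, a point for each gene in alphabetical order within its list. Red points have an unadjusted edgeR p below 0.05 and black bars are the list medians, -0.25 for the members, of which Jun changes sign when scaled by library totals only, and 0.24 for the heat shock genes.

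Heat shock genes respond to tissue handling and to protein stress, as the members do. Of 17 listed genes 6 rose and 0 fell at an unadjusted p below 0.05 in edgeR, with a median log2 fold change of 0.24, and 4 to 10 rose in the fits with a sample left out. Over all genes 2.87% rose with all samples. The count of 10 came from the fit without LPS + Tan replicate 2, in which 820 of 15917 genes rose. Hspa1b was at 9.92, 5.04, 4.60 and 5.08 CPM in LPS replicates 1 to 4 and at 25.3, 9.10, 36.5 and 22.5 CPM in LPS + Tan replicates 1 to 4, with a log2 fold change of 1.92 (standard error 0.39, edgeR, unadjusted p = 0.000614). Hspa1a was at 1.71, Hspa8 at 0.64, Hsph1 at 0.50, Dnaja1 at 0.49 and Dnajb1 at 0.37, and of these Hsph1 and Dnaja1 lost the threshold without LPS replicate 2, 3 or 4 or LPS + Tan replicate 1 or 4 (0.42 to 0.69 and 0.36 to 0.64). Summed over the list the level was 5619, 4683, 4633 and 4597 CPM in the LPS group and 6354, 4450, 5541 and 6653 CPM in the LPS + Tan group. LPS + Tan replicate 2 was the lowest of all samples for this sum, though for none of the 6 genes that rose, while the other 3 LPS + Tan samples were all above LPS replicates 2, 3 and 4. The part of tissue handling or stress in the members' levels was not tested.

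Markers of several cell types also varied between the mice. The sum of 5 platelet markers was 33.7, 33, 32.5 and 36.9 CPM in LPS replicates 1 to 4. It was 19.6, 37.2, 23.5 and 30.6 CPM in LPS + Tan replicates 1 to 4, with replicate 2 just above LPS replicate 4. Itga2b, the most abundant of the 5, was at 21.3 CPM in LPS + Tan replicate 2 and at 13.5 to 16.6 CPM with LPS. Of these 5 genes 1 fell, Ppbp at a log2 fold change of -0.68 (edgeR, unadjusted p = 0.00610). Ppbp was at 7.60 CPM in LPS + Tan replicate 2, against 6.90 to 11.3 CPM with LPS. Over all genes 2.25% fell and 2.87% rose at the threshold with all samples. The 7 T and NK cell markers found, led by Gzma, summed to 128, 198, 95.6 and 118 CPM with LPS and to 83.1, 227, 156 and 113 CPM with LPS + Tan. Among 8 neutrophil markers, led by S100a9, the sum was 4694, 4046, 5347 and 4852 CPM with LPS and 5286, 3555, 4999.5 and 5106 CPM with LPS + Tan. LPS + Tan replicate 2 was therefore the highest sample for T and NK cell markers and the lowest for neutrophil markers, with 0 genes of either list past the threshold in edgeR. Of 8 endothelial markers 2 rose, Kdr at 0.37 and Tek at 0.51, with sums of 3893, 3360.1, 4129.5 and 4113 CPM against 4393, 3870, 4113 and 4039 CPM. Of these 8 markers 5 were above 0 and 3 below, Cdh5 at -0.15, Vwf at -0.063 and Cldn5 at -0.029. Their median was 0.22 (0.13 to 0.30 with a sample left out). Of 6 club and ciliated cell markers 1 fell, Ccdc153 at -0.38, with 5 below 0 and 1 above. Kdr lost the threshold without LPS replicate 1, 2 or 3 or LPS + Tan replicate 1 or 2 (0.24 to 0.47 with a sample left out) and with the replicate block. Tek lost it without LPS replicate 1, 2 or 3 or LPS + Tan replicate 1, 3 or 4 (0.40 to 0.69) and with voom and limma on FPKM. Ccdc153 lost it without LPS replicate 1 or 2 or LPS + Tan replicate 1, 2 or 3 (-0.50 to -0.29). The 7 erythroid markers, led by Hbb-bs, were all below 0 in log2 fold change with all samples (5 to 7 with a sample left out). Their median was -0.47, and it was -0.30 without LPS replicate 3 and -0.29 without LPS + Tan replicate 1. They summed to 2589, 1427, 3455 and 2958 CPM with LPS and to 1327, 2177, 2119 and 1939 CPM with LPS + Tan. In edgeR 0 of them passed the threshold (at most 2 in other settings and 4 with a sample left out). The 8 heart muscle markers were all above 0 with all samples, with 0 past the threshold (at most 2 with a sample left out) and a median of 0.29. The median was 0.14 without LPS replicate 1, 0.45 without LPS replicate 4, 0.066 without LPS + Tan replicate 3 and 0.48 without LPS + Tan replicate 4. With LPS the 8 macrophage and monocyte markers summed to 742, 705, 752 and 476 CPM. With LPS + Tan they summed to 811, 653, 700 and 706 CPM. Of these 8, 7 were above 0 in log2 fold change and 1 below, with a median of 0.082 (-0.090 to 0.15 with a sample left out). With all samples 0 of them passed the threshold in edgeR, and 0 of the fibroblast, smooth muscle, B cell and mesothelium markers did. No marker of these lists was at 0 in all samples. The part of cell composition in the members' values was not tested.

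In the GENCODE annotation of GRCm38, Fos lies at chr12:85473890-85477273 on the plus strand with 4 exons in its first transcript, Jun at chr4:95049034-95052222 on the minus strand as a single exon, and Ier2 at chr8:84661331-84662852 on the minus strand, also as a single exon. Junb, at chr8:84974484-84978718, overlaps Prdx2 on the opposite strand, Jun overlaps the antisense gene Junos, and Atf3, at chr1:191170296-191218039, holds a small RNA gene on its opposite strand. No source used here states whether counting used the strand, so for Jun, Junb and Atf3 the reads of such partners cannot be told apart from their own.

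Promoter sequences, 250 bases before to 50 after a transcript start, were taken from RefSeq (GRCm38.p6), where 7 of the 10 members matched by symbol. They had 11 promoters in all, since Egr2 has 5 starts, some of them overlapping. Egr1, Egr3 and Ier2 had no entry. Both strands were searched for letters that factors of this system are known to bind. TGACG, the core of the cAMP response element and contained in its full form TGACGTCA, was found in 8 of the members' 11 promoters, 3 of Egr2 and those of Fos, Fosb, Junb, Atf3 and Nr4a1, and in 20.8% of all 32851 promoters. TGACGTCA itself was found in 0 of the 11 and in 1.79% of all promoters, and TGANTCA, the usual AP-1 site, in 0 and in 7.81%. The CArG box, bound by SRF, was found in 4 of the 11, all of Egr2, and in 1.63% of all promoters, GCGNGGGCG, the EGR site, in 2, those of Fosb and Nr4a1, and in 5.55%, and TATAA in 3, of Fos, Junb and Egr2, and in 24.9%. Overlapping promoters of Egr2 share sites, so the counts for the CArG box and TGACG hold the same site more than once. By member, 1 of 7 held the CArG box and 6 of 7 held TGACG. The members' promoters held 56.0% to 72.3% G and C, against a median of 52.7% over all promoters. These matches are a description of this window, in which letters further upstream are not covered.

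The part before the RefSeq start is printed for Fos, the member that passed the unadjusted threshold in each of the 20 other settings, for Atf3 and Nr4a1, which did not pass it in the main edgeR test, and for a start of Egr2 with a CArG box, so that their motifs can be set side by side. They run 5′ to 3′ in the direction of the gene, with TGACG on either strand (read as CGTCA on the other) and the CArG box in capitals. Fos is chr12:85473640-85473889 on the plus strand, with TGACG starting 129 and 66 bases before that start and TATAA at 33. Egr2 is chr10:67537619-67537868 on the plus strand, with the CArG box starting at 72 between TGACG matches at 111 and 55. Nr4a1 is chr15:101266596-101266845 on the plus strand, with matches at 233, 213, 69 and 40, and Atf3 is chr1:191183334-191183583 on the minus strand, with a match at 7. For Egr2, Nr4a1 and Atf3 these starts lie inside the GENCODE gene span.
Fos: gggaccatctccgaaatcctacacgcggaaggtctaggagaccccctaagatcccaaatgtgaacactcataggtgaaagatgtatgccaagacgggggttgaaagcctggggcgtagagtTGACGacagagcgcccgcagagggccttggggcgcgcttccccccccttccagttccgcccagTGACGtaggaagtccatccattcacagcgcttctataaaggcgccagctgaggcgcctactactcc
Egr2: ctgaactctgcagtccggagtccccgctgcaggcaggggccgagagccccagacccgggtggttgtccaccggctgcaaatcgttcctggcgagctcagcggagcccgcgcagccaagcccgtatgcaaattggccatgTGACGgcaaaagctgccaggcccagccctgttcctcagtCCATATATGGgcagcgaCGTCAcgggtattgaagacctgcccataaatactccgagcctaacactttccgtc
Nr4a1: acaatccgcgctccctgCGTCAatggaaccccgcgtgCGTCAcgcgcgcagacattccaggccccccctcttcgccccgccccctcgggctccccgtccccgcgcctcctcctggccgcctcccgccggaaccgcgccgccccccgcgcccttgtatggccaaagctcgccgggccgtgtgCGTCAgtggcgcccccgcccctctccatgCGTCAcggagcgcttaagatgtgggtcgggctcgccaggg
Atf3: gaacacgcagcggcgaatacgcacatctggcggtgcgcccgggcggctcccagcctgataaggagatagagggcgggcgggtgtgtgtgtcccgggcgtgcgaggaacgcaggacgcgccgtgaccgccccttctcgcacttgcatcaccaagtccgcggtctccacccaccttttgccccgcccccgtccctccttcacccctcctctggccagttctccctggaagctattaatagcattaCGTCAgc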

How the data were processed

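The authors deposited raw read counts per gene and FPKM values for the same 24584 genes in 8 samples. In 14098 genes with enough reads, FPKM as deposited matched counts over sample total and a length that was constant for each gene across samples. That length was derived from the FPKM values, not from an annotation. The submitters' processing notes list GRCm38 and mm10 as builds, and no aligner or counter is named in them. The test was the quasi-likelihood test of edgeR 4.0.16 (R 4.3.3) after filterByExpr and TMM scaling, for LPS + Tan minus LPS, with Benjamini-Hochberg adjustment over all 15706 genes tested, and the scripts were tested on simulated data. The standard error is the log2 fold change divided by the square root of the F statistic. Single genes were also compared by an exact permutation test (SciPy 1.17.1, Python 3.11.15). Alternatives were RLE, upper-quartile or no scaling, DESeq2 1.42.0, limma-voom and limma 3.58.1 on log2(FPKM + 1) and log2(FPKM + 0.1), the edgeR likelihood ratio test, the filter dropped or set to 1 CPM in 4 samples, a replicate block, and leaving out each sample. The counts of related lists and the medians of marker lists under them, and the ratio with first-transcript lengths, were added after seeing the data. Named genes are the members, the listed genes at an unadjusted p below 0.05 or, in a related list without any, the 2 with the highest mean CPM (a gene is not reported here), and the 10 genes with a mean CPM of at least 1 most correlated with the members' mean standardized log2 CPM. The members and lists were chosen with earlier results of these data known. Of 276 list entries 274 were found in the tables. No pair of samples of a group was a repeated library, with squared deviations of 7.82 to 22.4 times sampling noise.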

Additional observations from a re-analysis of the deposited data

Results flagged for a closer look

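In 3 of 72 groups of 4 samples examined, a single sample stood far from the others, measured as its gap to the nearest sample over the range of the group, and exceeded Dixon's critical value for groups of 4. Chance alone gives about 5% of such groups, or 3.6 of the 72. The gap was 0.920 for Egr1 in the LPS + Tan group, where replicate 2 was at 92.0 CPM and the next sample at 39 CPM. It was 0.837 for Gadd45a in the LPS group, where replicate 4 was at 20.4 CPM and the next at 30.0 CPM, and 0.910 for Hspa1b in the LPS group, where replicate 1 was at 9.92 CPM and the next at 5.08 CPM. The causes were not tested.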

How the results depend on the processing

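Fos and Egr3 kept their direction in all 20 alternatives, as did Junb, Egr1, Egr2, Atf3 and Ier2, and 0 members passed an adjusted p of 0.05 in any (Fos 0.0750 to 1.0). The number of members lower at an unadjusted p below 0.05 was 2 in every alternative with all samples except the replicate block (3) and ran from 1 to 5 with a sample left out. The exact permutation test did not reach 0.05 for Fos (difference of log2 means -0.77) or Egr1 (-0.86). With a sample left out, log2 fold changes ran from -0.61 to 0.17 for Fosb, -0.14 to 0.042 for Jun, -0.25 to -0.039 for Junb, -1.23 to -0.61 for Egr1, -0.58 to -0.058 for Egr2, -0.42 to -0.16 for Egr3, -0.84 to -0.25 for Atf3, -0.33 to -0.13 for Ier2, -0.17 to 0.42 for Nr4a1, -0.13 to 0.00071 for Atf4, -0.22 to -0.047 for Mafk, 0.0017 to 0.083 for Ets2, -0.047 to 0.19 for Ets1 and -0.066 to 0.042 for Mapkapk2. Library totals only gave 0.0042 for Jun and 0.039 for Mapkapk2, for which limma on log2(FPKM + 1), with all genes as well, and on log2(FPKM + 0.1) gave 0.035 and upper-quartile scaling 0.0053. List medians ran from -0.12 to -0.020 for EGR and NR4A relatives, -0.089 to 0.0078 for other AP-1 genes, 0.0017 to 0.12 for the SRF list, -0.032 to 0.045 for the MAPK cascade, -0.086 to 0.0086 for targets and 0.14 to 0.34 for heat shock genes with a sample left out. The causes were not tested. Same-numbered samples had correlations of 0.16, -0.050, -0.16 and 0.044 in their deviations from the group mean. Only LPS + Tan replicate 1 was most like its own number. No pairing by number is seen in these values, and correlations this weak cannot show a small effect shared by same-numbered samples. With the replicate block, Atf3 passed at -0.53 (edgeR, unadjusted p = 0.048), and Gadd45a, F3 and Kdr did not pass. With limma on FPKM, Timp1 and Tek did not pass (nor Tek with voom), nor did Gadd45a, Sik1 and F3 when all genes were kept, and Sik1 did not pass with library totals only. Scaling moved the median of all genes by at most 0.042. With limma on log2(FPKM + 1) Nr4a3 was at 0.24, against 0.46 in edgeR. Its mean level was 0.950 FPKM, and adding 1 to a level this low makes a log2 fold change smaller. With 4 mice a group, at a single time and without an untreated group, the values say how these mice differed, not how far LPS had raised the members.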
